A study of Mus musculus with 10 samples.

Results

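The lipoprotein lipase system and the proteins that carry fatty acids into fat cells were followed here through 10 transcripts, Lpl, Gpihbp1, Lmf1, Angptl4, Angptl8, Cd36, Vldlr, Fabp4, Fabp5 and Slc27a1. They were taken by gene name from the 31285 genes of the table. RNA was sequenced from the subcutaneous inguinal fat pad of mice at 20 months of age, kept on chow with free access to food. The control group is labelled Flox, and in the second, called Ad-GHRKO after the series, the growth hormone receptor was knocked out in adipose tissue. The genotype label of that second group reads GHR Knockdown. Each group had 5 libraries. What drove the deletion, the strain and the sex were each not given in the sources used here. No label says that the libraries came from separate mice, and p-values then reflect only how much these samples vary, part of which may be technical.

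Lipoprotein lipase is made in adipocytes, folded in the endoplasmic reticulum with the help of LMF1, and carried by GPIHBP1 across the capillary endothelium, where it splits the triglycerides of chylomicrons and very low density lipoproteins. Its activity in fat is restrained by ANGPTL4, which rises with fasting. ANGPTL8, which rises with feeding and insulin, binds ANGPTL4 and shifts lipase activity between fat and muscle. The released fatty acids enter adipocytes with CD36 and SLC27A1 and are bound inside by FABP4 and FABP5, while VLDLR holds lipoproteins near the lipase.

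Values are FPKM as deposited, which are fragments per kilobase of merged exons scaled to the assigned fragments of the library. Differences between genotypes are Ad-GHRKO minus Flox on the log2(FPKM + 1) scale, which understates differences of low genes, with adjusted p-values from limma (Benjamini-Hochberg over 12785 genes, threshold 0.05). Libraries held 14.6 to 19.2 M (mega) recovered reads. Ghr itself ranged from 72.9 to 129.8 FPKM in Flox and from 12.99 to 20.1 FPKM in Ad-GHRKO, so each library lay on the side of its label. All 11 adipocyte markers were above 0 in every library. Reads on 26 skeletal muscle genes made up 17.8% of library Ad-GHRKO 1, 10.1% in Flox 5 and 7.06% in Flox 3, which are called muscle-rich. They made up 0.233% in Ad-GHRKO 5 and 0.00668% to 0.0184% in the other 6. In those 6 libraries, 1 to 4 of the 26 muscle genes were at 0. Results that rest on the muscle-rich libraries are given with and without them.

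Of the 10 transcripts 1 passed the test, Angptl8, which was lower in Ad-GHRKO. This was 1 of 10 against 2.19% of all genes tested, or 1.42% counting lower genes alone. The libraries of the genotypes did not overlap for 2 of the 10, Angptl8 and Lmf1, both lower, where 4.97% of all genes tested were apart and 3.35% were apart and lower. The median log2 difference of the 10 was -0.18, with 3 positive and 7 negative, and that of all genes tested was 0.04. All 10 passed the filter on low values. The genes spanned a wide range of levels per length, from a mean over all libraries of 2117 FPKM for Fabp4 through 656 for Cd36, 544 for Lpl, 189 for Angptl4, 128 for Slc27a1, 66.7 for Gpihbp1, 40.8 for Fabp5, 19.7 for Angptl8 and 12.97 for Vldlr to 1.995 FPKM for Lmf1. In that order, neighbours overlapped in their ranges over the 10 libraries except Vldlr and Lmf1. The merged exons of Fabp4 covered its whole span of 4489 bases, so its level per length depends on that gene model.

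**Figure D1:**
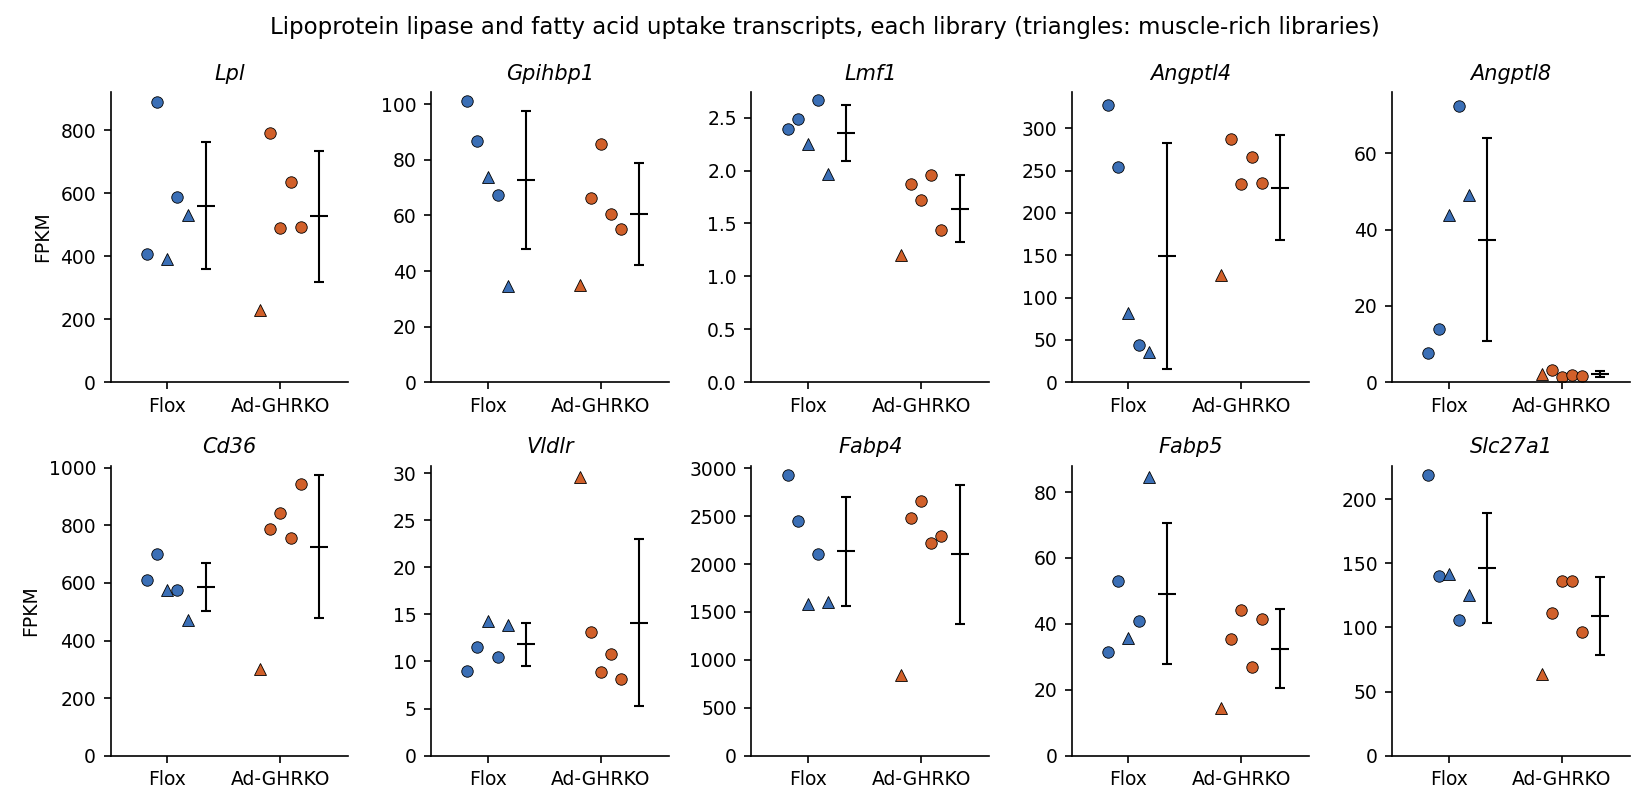
FPKM of each transcript (vertical axes from 0, a separate scale in each panel) in the 5 Flox and 5 Ad-GHRKO libraries, with the mean and SD as bars beside the points and the 3 muscle-rich libraries as triangles. Angptl8 lay between 7.65 and 72.5 FPKM in Flox and between 1.22 and 3.25 FPKM in Ad-GHRKO.

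Lpl, which encodes the lipase (chr8:68880491-68907448, plus strand, GRCm38), was abundant in both genotypes. Flox libraries 1 to 5 had 407, 888, 390, 588 and 531 FPKM, and Ad-GHRKO libraries 1 to 5 had 228, 791, 488, 635 and 494 FPKM. The highest library of each group was number 2 and the lowest were muscle-rich, and the groups overlapped. Group means of Lpl were 561 ± 201 and 527 ± 208 FPKM (SD, n = 5 each). The log2 difference was -0.13 (SE 0.34, 95% interval -0.88 to 0.61, adjusted p = 0.890), so a difference of either sign within that interval was not resolved. It was 0.14 without Ad-GHRKO 1. Because the pad is a mixture of cells, fewer cells of a type and less RNA per cell cannot be told apart in any of these values. Set against the mean of the 11 adipocyte markers in the same library, Lpl was 0.216 ± 0.356 log2 units above them in Flox and 0.284 ± 0.179 above them in Ad-GHRKO. That difference of 0.07 did not pass an exact two-sided permutation test (p = 0.714, adjusted p = 0.714 over the 4 relative levels tested). Both terms enter it, since the 11 markers had a median log2 difference of -0.26, with 4 positive and 7 negative.

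Lmf1, whose product matures the lipase in the endoplasmic reticulum (chr17:25579085-25662826, plus strand), was the least abundant of the 10. It was at 2.39, 2.49, 2.25, 2.67 and 1.96 FPKM in Flox libraries 1 to 5 and at 1.20, 1.88, 1.72, 1.96 and 1.43 FPKM in the Ad-GHRKO libraries. Every Flox library was above every Ad-GHRKO library, but Flox 5 and Ad-GHRKO 4 were almost level. The lowest value of each genotype came from a muscle-rich library. These levels rested on 508 to 647 reads in Flox and 285 to 512 reads in Ad-GHRKO. The means were 2.35 ± 0.265 and 1.64 ± 0.316 FPKM. Their log2 difference of -0.35 (SE 0.12, 95% interval -0.61 to -0.09) did not pass after adjustment (adjusted p = 0.165). It did pass with median ratio scaling (adjusted p = 0.0420, where 4.15% of all genes passed), quantile normalization (0.0422, 4.42% of genes), the muscle score as covariate (0.0396, 6.39% of genes) and limma voom on recovered reads (0.0480, 3.42% of genes). The Lmf1 difference did not pass without the 3 muscle-rich libraries (-0.36, adjusted p = 0.0886), where 6.08% of all genes passed. Nor did it pass without these and Ad-GHRKO 5 (-0.30, adjusted p = 0.102, where 5.28% of genes passed). With FPKM rescaled to TPM the groups overlapped.

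Gpihbp1 encodes the endothelial carrier of the lipase (chr15:75596628-75599481, plus strand). Flox libraries 1 to 5 had 101, 86.9, 73.8, 67.4 and 34.7 FPKM, and Ad-GHRKO libraries had 35.1, 66.4, 85.7, 60.5 and 55.2 FPKM. The muscle-rich Flox 5 and Ad-GHRKO 1 were the lowest of their groups, and the ranges were nearly the same. The means of 72.8 ± 24.9 and 60.6 ± 18.3 FPKM differed by -0.23 on the log2 scale (SE 0.30, 95% interval -0.88 to 0.42, adjusted p = 0.760). Single libraries moved this value, to -0.054 without Ad-GHRKO 1, -0.095 without Flox 1, -0.15 without Flox 2, -0.37 without Ad-GHRKO 3 and -0.47 without Flox 5, and none of these passed. The 12 endothelial markers summed to 172 to 407 FPKM in Flox and 213 to 456 FPKM in Ad-GHRKO, and 0 of 12 passed the test. Relative to their mean, Gpihbp1 was higher by 1.81 ± 0.279 log2 units in Flox and by 1.54 ± 0.188 in Ad-GHRKO. The difference of -0.27 did not pass the exact two-sided permutation test (p = 0.111, adjusted p = 0.222). It was -0.055 against the median of the markers (exact permutation p = 0.754) and -0.41 without the 3 muscle-rich libraries (exact permutation p = 0.0286, adjusted p = 0.114). That p is the smallest that 35 assignments can give, and alone among the 4 relative levels it cannot pass adjustment.

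Angptl8 fell by 3.30 on the log2 scale in Ad-GHRKO (SE 0.51, 95% interval -4.42 to -2.17, adjusted p = 0.00877). It had 7.65, 14.0, 43.7, 72.5 and 49.1 FPKM in Flox libraries 1 to 5 and 2.15, 3.25, 1.22, 1.92 and 1.66 FPKM in Ad-GHRKO libraries 1 to 5. Every Ad-GHRKO library was below every Flox library, and Flox 1 and Flox 2 were well below the other Flox libraries. The means were 37.4 ± 26.7 and 2.04 ± 0.759 FPKM, a ratio of 0.0546. On the shortest transcript of the 10, with 865 exon bases, these values were 105, 216, 705, 1119 and 809 reads in Flox against 34, 54, 20, 32 and 21 reads in Ad-GHRKO.

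The fall of Angptl8 was past the threshold in each fit that left out 1 library, from -3.74 without Flox 1 to -2.97 without Flox 4, with adjusted p-values from 0.00227 to 0.0322. Without the 3 muscle-rich libraries it was -2.86 (adjusted p = 0.0459), where 6.08% of all genes passed. Without these and Ad-GHRKO 5 it was -2.81 and no longer passed (adjusted p = 0.0858, 3 libraries in each group), where 5.28% of all genes did. Angptl8 (chr9:21835510-21837347, plus strand) lies within Dock6 on the opposite strand and shares 0 exon bases with it. Dock6, which encodes a guanine nucleotide exchange factor, averaged 7.81 ± 2.29 FPKM in Flox libraries and 9.70 ± 2.999 FPKM in Ad-GHRKO libraries, and whether its intron reads add to Angptl8 was not tested.

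The bases just before the start of Angptl8 are shown because it was the transcript that differed between genotypes, and those of Vldlr because its window held the same 8 letters at a similar distance while its level overlapped between the genotypes. Both are RefSeq sequences of GRCm38.p6, plus strand, 5′ to 3′, ending at the base before the first transcribed base, at chr9:21835260-21835509 and chr19:27216234-27216483. Capitals mark matches to the motifs searched.
Angptl8: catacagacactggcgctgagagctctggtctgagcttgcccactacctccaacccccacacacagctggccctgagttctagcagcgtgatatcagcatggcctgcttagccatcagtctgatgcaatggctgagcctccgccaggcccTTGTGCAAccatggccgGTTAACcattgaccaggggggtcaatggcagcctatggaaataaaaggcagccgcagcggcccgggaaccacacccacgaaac
Vldlr: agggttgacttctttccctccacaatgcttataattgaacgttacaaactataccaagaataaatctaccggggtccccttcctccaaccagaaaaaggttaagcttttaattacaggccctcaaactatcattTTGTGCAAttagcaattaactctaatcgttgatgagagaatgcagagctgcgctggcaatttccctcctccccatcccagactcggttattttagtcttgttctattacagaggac
The search covered 8 motifs on both strands, and each is given here with the share of 32851 RefSeq promoter windows of 250 bases that held it. AGGTCA, read by nuclear receptors, was in 14.0% of windows, and CACGTG, the E-box, in 6.02%. The STAT motif TTCNNNGAA was in 7.02% and the C/EBP motif TTNNGCAA in 9.56%. The palindrome GTTAAC was in 2.56% and the box CCAAT in 33.8%. The TATA box, searched as TATAAA, was in 12.4%, and the GC box, searched as GGGCGG, in 32.7%. The Angptl8 window held TTNNGCAA as TTGTGCAA at 100 to 93 bases before the start and GTTAAC at 83 to 78 bases, with no overlap. The Vldlr window shown held TTGTGCAA at 116 to 109 bases. The other Vldlr window held CCAAT and GGGCGG, both on the minus strand, and no TTNNGCAA. Sequences were found for 5 of the 10 genes, in 8 windows (Lmf1, Angptl8, Cd36, Vldlr and Slc27a1), and the Lmf1 window held GGGCGG on the minus strand at 108 to 103 bases. These matches describe letters and no binding was measured.

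Angptl4, the fasting-induced inhibitor of the lipase (chr17:33773750-33781830, minus strand), had the highest coefficient of variation of the 10 among Flox libraries. They had 327, 254, 81.2, 43.6 and 36.2 FPKM, a 9.04-fold range where that of Angptl8 was 9.47-fold, and Ad-GHRKO libraries had 126, 287, 234, 266 and 235 FPKM. Of the Ad-GHRKO libraries the muscle-rich number 1 was lowest, and the groups overlapped because Flox 1 and Flox 2 were as high as the Ad-GHRKO libraries. The coefficient was 89.9% in Flox and 27.0% in Ad-GHRKO. The means of 149 ± 134 and 229.7 ± 61.9 FPKM gave a log2 difference of 1.11 (SE 0.58, 95% interval -0.15 to 2.38) that did not pass (adjusted p = 0.380). It was 0.72 without the 3 muscle-rich libraries (adjusted p = 0.491).

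Among Flox libraries, the 2 with the most Angptl4 had the least Angptl8. The ratio of Angptl4 to Angptl8 in FPKM was 42.8, 18.2, 1.86, 0.601 and 0.737 in Flox libraries 1 to 5 and 58.9, 88.2, 191, 139 and 141 in Ad-GHRKO libraries 1 to 5. These ratios did not overlap between genotypes, and they were looked at after the values were known, so they are a description without a test. Angptl8, by which each ratio is divided, did not overlap by itself, while Angptl4 did. The gap between the ratios therefore adds nothing to the result for Angptl8. The 2 genes share a library in each ratio, and 5 libraries a group are too few for a correlation within a genotype.

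**Figure D2:**
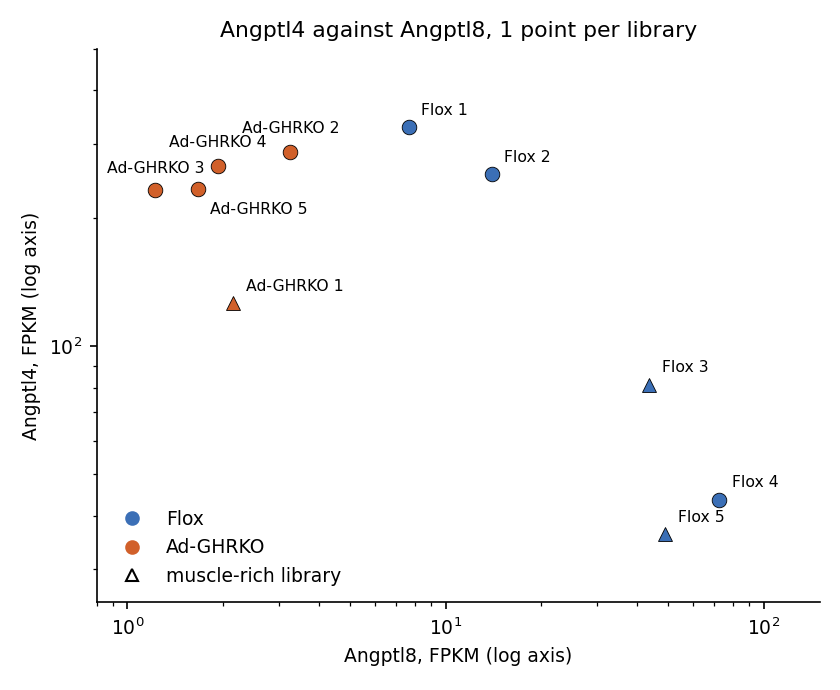
Angptl4 (vertical, FPKM, log axis) against Angptl8 (horizontal, FPKM, log axis) in each library, with muscle-rich libraries as triangles. Flox 1 and Flox 2 had Angptl4 at 327 and 254 FPKM, as high as in Ad-GHRKO, with Angptl8 still above every Ad-GHRKO library.

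Cd36 encodes the main fatty acid translocase of the adipocyte surface (chr5:17781690-17888801, minus strand). Flox libraries 1 to 5 had 612, 702, 575, 574 and 470 FPKM, and Ad-GHRKO libraries had 300.4, 787, 841, 755 and 945 FPKM. Of the Ad-GHRKO libraries 4 were above every Flox library, and the muscle-rich Ad-GHRKO 1 was below all of them. With all libraries the means were 587 ± 83.3 and 726 ± 249 FPKM and the log2 difference was 0.22 (SE 0.30, 95% interval -0.43 to 0.87, adjusted p = 0.776). Without Ad-GHRKO 1 it was 0.51 (SE 0.17) and the genotypes did not overlap, but it did not pass (adjusted p = 0.0791). In that comparison 9.27% of all genes passed and 11.7% were apart and higher in Ad-GHRKO. Without the 3 muscle-rich libraries the difference was 0.40 (adjusted p = 0.151).

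Vldlr, the receptor that binds triglyceride-rich lipoproteins (chr19:27216484-27254231, plus strand), was at 9.004, 11.5, 14.3, 10.4 and 13.9 FPKM in Flox libraries 1 to 5 and 29.6, 13.1, 8.93, 10.8 and 8.11 FPKM in Ad-GHRKO libraries. Ad-GHRKO 1 stood far above the other 9 libraries, which overlapped. In Flox too the muscle-rich libraries 3 and 5 were the highest. The means of 11.8 ± 2.25 and 14.1 ± 8.87 FPKM differed by 0.10 on the log2 scale (SE 0.29, 95% interval -0.54 to 0.74, adjusted p = 0.907), and by -0.19 without Ad-GHRKO 1.

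Slc27a1 encodes FATP1, a fatty acid transporter with acyl-CoA synthetase activity (chr8:71568882-71587302, plus strand). It had 219, 139.8, 142, 106 and 125 FPKM in Flox libraries 1 to 5 and 63.4, 111, 137, 136 and 96.8 FPKM in Ad-GHRKO libraries. Flox 1 was highest, Ad-GHRKO 1 lowest, and the groups overlapped. The means of 146 ± 42.9 and 109 ± 30.6 FPKM gave a log2 difference of -0.43 (SE 0.25, 95% interval -0.98 to 0.11, adjusted p = 0.434). It was -0.28 without Flox 1, -0.25 without Ad-GHRKO 1 and -0.18 with array weights, which down-weight libraries that vary more. Without the 3 muscle-rich libraries it was -0.31 (adjusted p = 0.463).

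Fabp4, whose product is the chief lipid chaperone of fat cells (chr3:10204088-10208576, minus strand), was the most abundant of the 10. Flox libraries 1 to 5 had 2925, 2445, 1587, 2104 and 1606 FPKM and Ad-GHRKO libraries had 842, 2480, 2662, 2225 and 2296 FPKM. All 3 muscle-rich libraries were below the other 7, and Ad-GHRKO 1 was far below the rest of its group. Group means were 2134 ± 570.1 and 2101 ± 724 FPKM, with a log2 difference of -0.09 (SE 0.34, 95% interval -0.84 to 0.67, adjusted p = 0.934) that was 0.22 without Ad-GHRKO 1. Without the 3 muscle-rich libraries it was -0.03 (adjusted p = 0.933). The part of the muscle reads in the values of Cd36, Vldlr and Fabp4 was not tested beyond the fits without these libraries and with the muscle score as covariate.

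**Figure D3:**
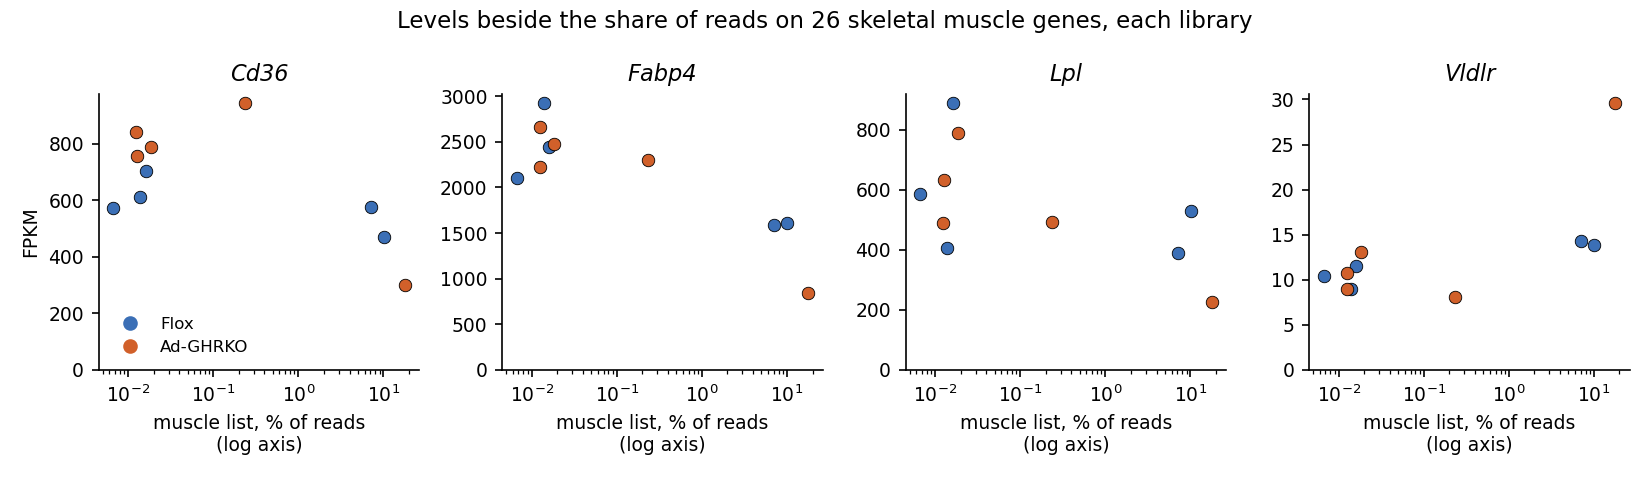
FPKM of Cd36, Fabp4, Lpl and Vldlr (vertical axes from 0) against the percent of reads on the 26 skeletal muscle genes (horizontal, log axis), 1 point per library in the colours of the genotypes. In Ad-GHRKO 1, at 17.8% of reads on muscle genes, Cd36, Fabp4 and Lpl had their lowest values and Vldlr its highest.

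Fabp5, the binding protein of adipocytes and macrophages (chr3:10012548-10016607, plus strand), was at 31.6, 53.0, 35.6, 40.9 and 84.6 FPKM in Flox libraries 1 to 5 and 14.5, 35.4, 44.2, 26.8 and 41.5 FPKM in Ad-GHRKO libraries. The highest library was the muscle-rich Flox 5 and the lowest the muscle-rich Ad-GHRKO 1, and the groups overlapped. The means of 49.1 ± 21.4 and 32.5 ± 12.1 FPKM differed by -0.59 on the log2 scale (SE 0.33, 95% interval -1.31 to 0.13, adjusted p = 0.421), and by -0.17 without the 3 muscle-rich libraries. The table holds 3 other genes described as fatty acid-binding protein 5. These copies took 1.43% to 2.22% of the reads of Fabp5 and its copies together, so reads may be divided between them.

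The 15 macrophage markers summed to 722 to 2087 FPKM in Flox and 1081 to 3141 FPKM in Ad-GHRKO. All 15 had positive log2 differences, where 7127 of the 12785 genes tested did, and 2 passed the test, where 2.19% of all genes tested passed. Trem2, a receptor of lipid-laden macrophages, was low in Flox (from 0.884 ± 0.503 to 5.88 ± 2.19 FPKM, adjusted p = 0.00394). Lgals3, which encodes galectin-3, was close to the threshold (from 46.2 ± 12.9 to 220.1 ± 172 FPKM, adjusted p = 0.0488). These 2 calls were not followed through the alternative fits. Fabp5 relative to the mean of the 15 macrophage markers was 0.502 ± 1.11 log2 units in Flox and -0.83 ± 0.288 in Ad-GHRKO. The difference of -1.33 had p = 0.0159 by the exact two-sided permutation test and did not pass after adjustment (adjusted p = 0.0635). Both terms enter it, since Fabp5 itself differed by -0.59 and the markers had a median log2 difference of 0.51. Without Flox 1 it was -1.61 and passed (adjusted p = 0.0159). It did not pass with any other single library left out (adjusted p up to 0.222). Nor did it pass with the median of the markers (-1.22, adjusted p = 0.190) or without the 3 muscle-rich libraries (-0.94, adjusted p = 0.114). Fabp5 relative to Fabp4 was -5.46 ± 0.807 in Flox and -5.96 ± 0.243 in Ad-GHRKO (difference -0.50, exact permutation p = 0.230, adjusted p = 0.307). Without Flox 1 that difference was -0.76 and passed (adjusted p = 0.0159), and without the 3 muscle-rich libraries it was -0.13. The smallest p that these permutations can give was 0.00794 with all libraries or with 1 left out, and 0.0286 without the 3 muscle-rich libraries. What part macrophages have in the Fabp5 level was not tested.

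**Figure D4:**
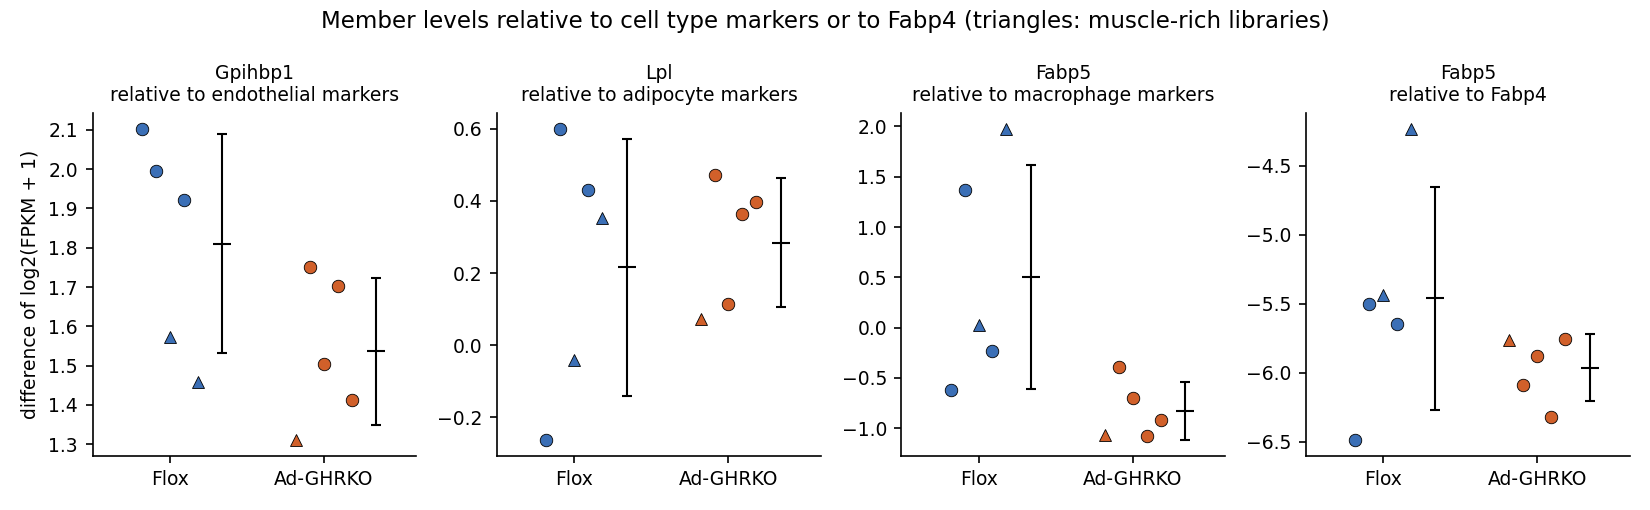
Levels of Gpihbp1, Lpl and Fabp5 relative to markers of endothelium, adipocytes and macrophages, and of Fabp5 relative to Fabp4 (vertical, difference of log2(FPKM + 1)), for each library with mean and SD. The 5 Ad-GHRKO libraries lay close together for Fabp5 relative to macrophage markers (-0.83 ± 0.288), and the Flox libraries were spread widely (0.502 ± 1.11).

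**Figure D5:**
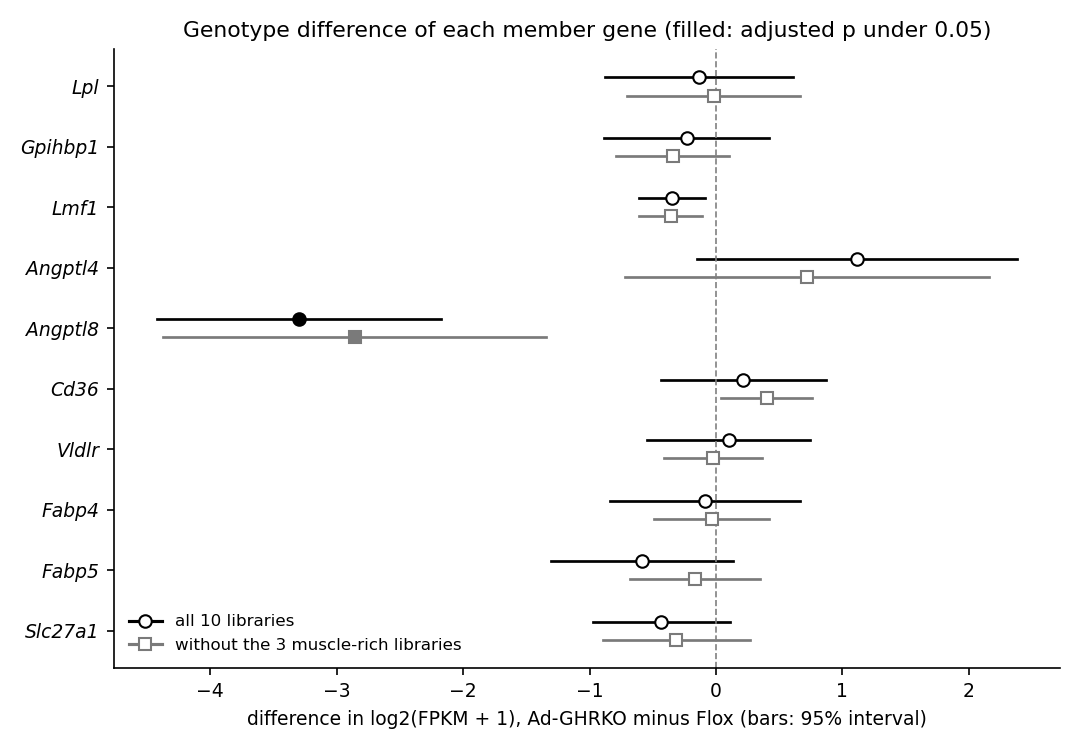
Log2 difference between genotypes (horizontal, Ad-GHRKO minus Flox, bars the 95% interval) of the 10 transcripts with all libraries (black circles) and without the 3 muscle-rich libraries (grey squares), filled where the adjusted p was under 0.05. Angptl8 was filled in both, at -3.30 and -2.86.

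The transcripts most like each gene over the 10 libraries, after the mean of each genotype was subtracted, were found among 7341 genes with a mean of at least 5 FPKM. They are descriptions, since the points share library, depth and muscle content. Angptl4 was followed most closely by Cldn5 (Pearson r = 0.98), a tight junction gene of endothelium, then by Txnip and Phf2os1. Cldn5 was at 143, 101, 43.5, 25.97 and 18.5 FPKM in Flox libraries 1 to 5, in the same order as Angptl4, and at 45.4, 85.5, 86.2, 69.8 and 88.9 FPKM in Ad-GHRKO libraries. Angptl8 had looser neighbours, Plekhh3 (r = 0.84), Me1 (r = 0.82) and Srprb (r = 0.82). Me1, which encodes the cytosolic malic enzyme that supplies NADPH for lipid synthesis, was at 45.3, 74.5, 119, 114 and 195 FPKM in Flox and 44.4, 57.4, 44.1, 60.7 and 33.3 FPKM in Ad-GHRKO. Flox 1 and Flox 2 were the lowest Flox libraries for both Me1 and Angptl8. Fabp5 was nearest to Gm6166 (r = 0.96), a copy of itself, so shared reads may set that value. The nearest gene was Isoc1 for Lpl, Adamts10 for Gpihbp1, Atrnl1 for Lmf1, Becn1 for Cd36, Eprs for Vldlr, Cc2d1b for Fabp4 and Cxxc1 for Slc27a1.

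Of 59 other genes of the pathway that were tested, in 5 lists, 3 passed, against 2.19% of all genes tested. Among lipase cofactors, inhibitors and processing factors, 14 of 19 were tested, 1 rose and 1 fell, and the median log2 difference was 0.01. Apoc1, an apolipoprotein that inhibits the lipase, fell from 103 ± 30.5 to 35.01 ± 3.36 FPKM (log2 difference -1.48, adjusted p = 0.0033), with every Ad-GHRKO library below every Flox library. Sdc4, a heparan sulfate proteoglycan of the kind that holds the lipase at the cell surface, rose from 22.3 ± 5.03 to 75.3 ± 41.1 FPKM (1.58, adjusted p = 0.0285). The libraries were apart for Sdc4 as well, but its call ended without Flox 1 (adjusted p = 0.0573), Flox 2 (0.0561), Flox 3 (0.0705), Flox 5 (0.0657) or Ad-GHRKO 4 (0.0673), without the 3 muscle-rich libraries (0.0554), without these and Ad-GHRKO 5 (0.0660) and with no filter on low values (0.0838).

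Of the regulators of these genes 12 of 12 were tested and 1 fell, Srebf1, the lipogenic transcription factor, from 77.4 ± 12.97 to 29.1 ± 4.99 FPKM (-1.38, adjusted p = 0.00207). It overlaps 109 exon bases of Rai1 on the opposite strand, and reads there cannot be told apart without strand. Ppara, the fatty acid receptor, was at 1.54 ± 0.271 and 1.08 ± 0.222 FPKM (adjusted p = 0.259), and the list had a median of -0.25. Among genes induced by fatty acids through PPARs 0 of 8 passed and the median was 0.39, with Pdk4, which restrains pyruvate oxidation, at 51.5 ± 37.3 and 118 ± 43.8 FPKM (adjusted p = 0.123) and Cpt1a, the gate to mitochondrial fatty acid oxidation, at 9.64 ± 2.55 and 16.9 ± 5.46 FPKM (adjusted p = 0.189). Cpt1a rose with array weights (0.78, adjusted p = 0.0132), where 13.3% of all genes passed, when Ad-GHRKO 1 was left out (0.94, 0.0150) and when all 3 muscle-rich libraries were (0.79, 0.0436). Pdk4 rose with array weights (1.47, adjusted p = 0.0375) and without Flox 1 (1.69, 0.0243), where 1.51% of all genes passed.

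Other lipoprotein receptors gave 0 of 8 past the test, with a median of -0.26. Sorl1, a sorting receptor, had a log2 difference of -1.07 (adjusted p = 0.148). It fell with array weights (-1.09, adjusted p = 0.0114), with the muscle score as covariate (-0.99, 0.0359), when Ad-GHRKO 1 was left out (-1.32, 0.0295) and when all 3 muscle-rich libraries were (-0.93, 0.0401). Scarb1, the high density lipoprotein receptor, differed by -0.44 (adjusted p = 0.248). In the list of other fatty acid transport, activation and binding genes 0 of 17 passed and the median was 0.17. Acsl1, the main acyl-CoA synthetase of fat cells, was at 137 ± 19.3 and 89.8 ± 31.5 FPKM (-0.66, adjusted p = 0.194), and Scp2, a lipid carrier of peroxisomes, at 181 ± 28.6 and 129 ± 33.9 FPKM (-0.51, adjusted p = 0.259). Acsl1 was at -0.40 without the 3 muscle-rich libraries (adjusted p = 0.293). Scp2 was at -0.34 without Ad-GHRKO 1 (adjusted p = 0.187) and fell with the muscle score as covariate (-0.57, adjusted p = 0.0357). Sorl1 and Acsl1 overlap transcripts on the opposite strand.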

How the data were processed

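Polyadenylated RNA of 10 libraries was sequenced, per the labels' protocols. The authors deposited FPKM values per gene and library, per the file headers. The aligner, counting tool and use of strand were each not given in the sources used here. GRCm39 is named in the submitters' processing notes, but 31109 of 31253 identifiers (99.54%) had the GRCm38 coordinates of GENCODE M21, so coordinates are GRCm38 as in the table. FPKM times exon length gave whole reads, within 0.01, for 99.43% to 99.49% of values, and 31053 genes were whole in every library. Recovered depth was 17.8 ± 1.22 M reads in Flox and 18.0 ± 1.95 M in Ad-GHRKO (SD, n = 5 each). FPKM is relative to the library total, so reads on muscle transcripts take a share of that total from the other genes. How much of any single value this accounts for was not tested.

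Linear models in limma 3.58.1 with a mean-variance trend (R 4.3.3) were run on log2(FPKM + 1) for the 12785 genes that reached 1 FPKM in 5 or more libraries, with Benjamini-Hochberg adjustment at 0.05, two-sided. The 4 relative levels were compared by exact two-sided permutation in Python 3.11.15. All 10 genes are named. From each of the 5 pathway lists, every gene past 0.05 is named, or the 2 with the smallest p, and from each cell type list the 2 most abundant genes were tabulated. The 3 genes most like each member were taken by Pearson correlation. Members and lists were chosen with earlier results of these data known. The fit was tested on simulated data. Alternatives were leaving out each library, a replicate block, array weights, the muscle score as covariate, scaling by median ratios, quantiles or to TPM, the filter at 5 FPKM or absent, pseudocounts of 0.1 and 0.5 and the median of the markers. Fits without the muscle-rich libraries and limma voom on the recovered reads with library totals were chosen after seeing the data. Promoters came from RefSeq (GRCm38.p6). No value column was left out.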

Additional observations from a re-analysis of the deposited data

Results flagged for a closer look

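Of 28 sets of 5 libraries checked, 2 held a library far from the other 4 (gap to the nearest over 0.71 of the range), and chance alone marks about 1 set in 20. Vldlr was at 29.6 FPKM in Ad-GHRKO 1, with a gap of 0.766 of the range. Fabp4 was at 842 FPKM in the same library, with a gap of 0.760 of the range. Ad-GHRKO 1 had 17.8% of its reads on the muscle list. What part these reads have in both values was not tested beyond fits without this library and with the muscle score as covariate.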

How the results depend on the processing

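Angptl8 was called in every alternative except the fit without the 4 libraries with muscle reads. The number of the 10 transcripts called was 2 with median ratio scaling, quantile normalization, the muscle covariate and limma voom, Lmf1 being the second, 0 without those 4 libraries, and 1 to 1 with each library left out. Genes called among all those tested numbered 280, and 117 with no filter, 531 with median ratio scaling, 565 with quantile normalization, 1695 with array weights, 817 with the muscle covariate, 777 without the 3 muscle-rich libraries, 675 without 4, 434 of 12698 with voom, and 116 to 1185 with 1 library left out, 1185 being without Ad-GHRKO 1. Of these calls 64.6% were lower in Ad-GHRKO, against 39.7% with TPM rescaling, which moved the median log2 difference of all genes from 0.04 to 0.15, 40.8% with array weights, 55.4% with median ratio scaling, 51.4% without the 3 and 46.4% without the 4 libraries, and 34.3% without Ad-GHRKO 1. Pathway genes called numbered 3, and 5 with median ratio scaling, 9 with array weights, 9 with the muscle covariate, 6 without the 3 libraries, and 2 to 8 with 1 left out, 8 being without Ad-GHRKO 1. Differences near 0 changed sign. Lpl was at 0.042 with quantile normalization, 0.18 with array weights, 0.068 without the 4 libraries, and -0.31 to 0.14 with 1 left out (0.05 without Flox 2). Vldlr was at -0.022 with array weights and -0.024 without the 3 libraries, and -0.19 to 0.24 with 1 left out. Fabp4 was at 0.23 with quantile normalization, 0.034 with TPM rescaling, 0.099 with array weights, and -0.20 to 0.22 with 1 left out (0.04 without Flox 1). Lpl relative to adipocyte markers was -0.21 with the median of the markers and -0.051 to 0.16 with 1 left out. Leaving out 1 library gave -1.61 to -0.96 for Fabp5 relative to macrophage markers and -0.76 to -0.19 relative to Fabp4. The causes were not tested. Samples of equal replicate number did not consistently deviate together (r of -0.49, 0.39, -0.03, 0.28 and -0.26). Muscle content also enters these r values, so they cannot tell whether the numbers pair the samples. With a replicate block 85 genes were called, Angptl8 among them (adjusted p = 0.0464) and Sdc4 not (0.0640). Lmf1, at 285 to 647 reads, and Angptl8, at 20 to 54 reads in Ad-GHRKO, were the members with the least depth.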

Other observations

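Among the pathway genes too low or too uneven to lead any comparison, the binding protein Fabp1 and the apolipoprotein Apoc3, both best known from liver and gut, were highest in the same libraries. Fabp1 was at 32.5 FPKM in Ad-GHRKO 1 and 13.9 FPKM in Flox 2, and at 0 to 3.14 FPKM in the other 8 libraries. Apoc3 was at 17.1 FPKM in Ad-GHRKO 1, 7.13 FPKM in Flox 2 and 0 to 4.04 FPKM in the others. Fabp3, the binding protein of muscle and heart, was at 64.5, 30.6 and 29.0 FPKM in the muscle-rich Ad-GHRKO 1, Flox 3 and Flox 5 and at 0.477 to 7.32 FPKM in the other 7. These genes were chosen after their values were seen.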
